A study of Sus scrofa with 32 samples.

Results

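CDH17, CDH1, EPCAM, KRT8, KRT18, KRT20 and VIL1, 7 genes of epithelial adhesion, keratin filaments and microvilli among the 25880 genes of the count matrices, were followed by scRNA-seq through the porcine ileum and blood. The genes were chosen by name, with earlier results of these data known, and each matched 1 entry of the matrices. Barcodes were selected on measured values. QC cells had more than 1249 UMIs (unique molecular identifiers, 1 per captured RNA molecule), at least 550 genes and no more than 12.5% mitochondrial UMIs, and failing barcodes had at least 500 UMIs but missed 1 or more of these thresholds. CDH17 was also read in T/ILC-like (T cell and innate lymphoid cell) and B lineage-like QC cells with no CD3E UMI, at least 1 CD2 UMI and no KRT8 UMI, called gated lymphocytes here. The 8 libraries came from 2 mixed-breed pigs of 7 weeks, pig 1 labelled female and pig 2 labelled male. From each pig, ileum with Peyer's patches only (PP), ileum without Peyer's patches (non-PP), a whole cross section (whole ileum) and peripheral blood mononuclear cells (PBMC) were sequenced. Each ileal suspension mixed cells from the mucosal layers and submucosa, with Peyer's patches where the dissection held them, and lymphocytes were then enriched, so epithelial cells are few and had passed that enrichment. QC cells numbered 48629 in all (35386 ileal, 13243 blood), failing barcodes 19013 (16206 ileal) and gated lymphocytes 5246 (3383 ileal).

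The classical cadherin E-cadherin (CDH1) holds epithelial neighbors together at adherens junctions, where catenins tie its tail to actin. LI-cadherin (CDH17) is an intestinal cadherin with a short tail that does not use catenins, and EPCAM is an adhesion protein of epithelial membranes that binds claudin 7. KRT8 is a type II keratin that pairs with the type I keratins KRT18 and KRT20 to form the filaments of simple epithelia, and villin (VIL1) bundles actin in the microvilli of the brush border. In RefSeq's annotation of Sscrofa11.1 the genes lie at chr4:42508852-42597888 (CDH17), chr6:18075487-18155986 (CDH1), chr3:93169800-93185221 (EPCAM), chr5:18172423-18180277 (KRT8), chr5:18217686-18221432 (KRT18), chr12:21584683-21593583 (KRT20) and chr15:120463470-120494772 (VIL1). UMIs were taken from the 3′ ends of transcripts and were not set against length, so levels are compared between cells and libraries of 1 gene and not between genes.

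Libraries held 21134542 to 40111934 UMIs, with 3776 to 7704 QC cells each and a median of 2577.5 to 3583.5 UMIs per QC cell. In the library labelled whole ileum pig 1, Y-linked genes stood at 207 CPM (UMIs per 1000000 UMIs), against 0.161 and 0.224 CPM in the PP and non-PP libraries of pig 1 and 185 to 226 CPM in the ileal libraries of pig 2. This goes against the label of that library, and the main means and calls are also given without it. Barcodes shared by pairs of libraries ran from close to chance, as 69 against 68.4 for the PP libraries, to 38 against 60.1 for PP pig 2 and PBMC pig 1. The whole ileum libraries shared 41 against 60.5, and whole ileum pig 1 and PBMC pig 2 shared 70 against 53.4. Epithelial-like cells, named from other epithelial markers, made up 1.85% and 0.669% of QC cells in PP pigs 1 and 2, 6.58% and 2.07% in non-PP and 1.00% and 1.25% in whole ileum. B lineage-like cells made up 65.0% to 66.1% of PP and 5.96% to 6.45% of non-PP QC cells. Libraries are the replicates throughout, with 2 per dissection, labelled as 2 pigs. For whole ileum, the Y-linked genes leave it in doubt that these are 2 animals.

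Summed over ileal QC cells, most UMIs of 6 of the 7 genes lay in epithelial-like cells, and most UMIs of CDH17 did not. The 671 epithelial-like cells, 1.90% of the 35386, held 93.3% of EPCAM UMIs, 94.1% of KRT8 UMIs, 95% of KRT18 UMIs, 92.7% of KRT20 UMIs and 84.7% of VIL1 UMIs. They held 71.7% of the 2071 CDH1 UMIs, between 49.1% and 82.0% by library, and T/ILC-like cells held 23.7%, between 12% and 49.5%. Of the 5118 CDH17 UMIs, 36.4% lay in epithelial-like cells, between 11.6% and 65.6% by library, and 54.9% lay in T/ILC-like cells, between 20.1% and 82.5% by library. In PP pig 1 and non-PP pig 1, epithelial-like cells held more CDH17 UMIs than T/ILC-like cells, 435 against 133 and 918 against 647. The other ileal libraries went the other way, so the sum does not describe each library. Myeloid-like cells, 1.33% of cells, held 2.95% of CDH17 UMIs and B lineage-like cells, 50.8% of cells, held 5.69%. In blood, 13243 QC cells held 2 CDH17 UMIs, both in 1 T/ILC-like cell, 6 EPCAM UMIs, 1 KRT8 UMI, 2 KRT18 UMIs, 2 KRT20 UMIs and no VIL1 UMI. CDH1 had 37 UMIs in blood, 33 of them in T/ILC-like cells.

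**Figure D1:**
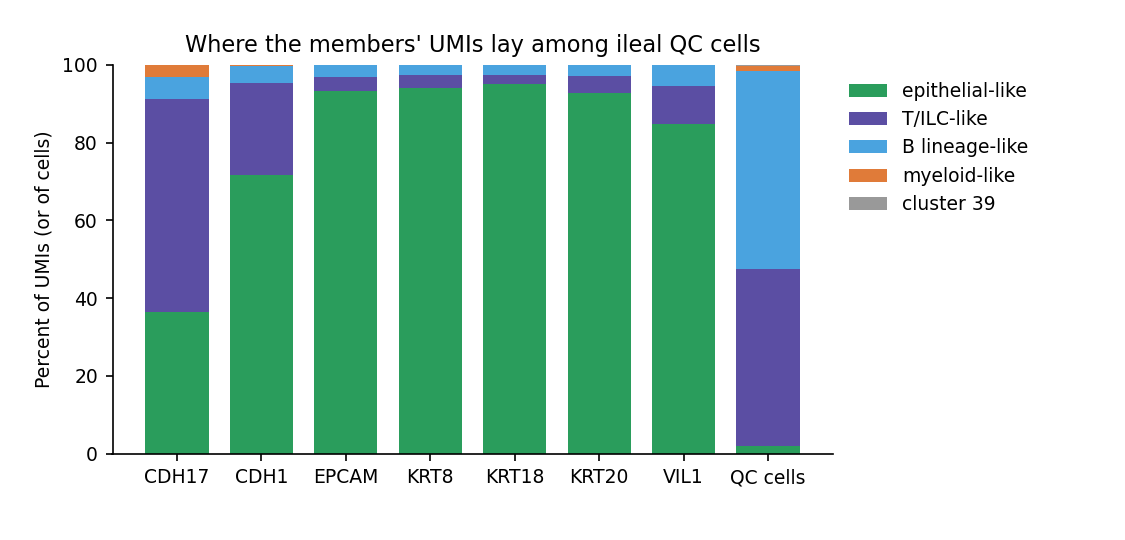
Percent of each gene's UMIs (7 left bars) and of all QC cells (right bar) by cell class, summed over the 6 ileal libraries. EPCAM, KRT8, KRT18, KRT20 and VIL1 lie mostly in the epithelial-like class, which holds 1.90% of cells, while 54.9% of CDH17 UMIs lie in T/ILC-like cells.

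The first comparison asked how the genes differed between non-PP and PP ileum over all QC cells of a library. CDH17 stood at 21.4 and 12.4 CPM in PP pigs 1 and 2, at 122 and 113 CPM in non-PP and at 32.6 and 15.3 CPM in whole ileum. Both non-PP libraries lay above the other 4. With so few libraries such a separation, here and below, can arise by order alone, and its share over all genes was not counted. CDH17 was higher in non-PP by 2.76 on the log2 scale (SE 0.42, adjusted p = 0.0150, edgeR's quasi-likelihood test with Benjamini-Hochberg adjustment over 12365 genes). It was the only 1 of the 7 genes called at an adjusted p below 0.05, where 18.9% of all genes tested were called, 7.70% higher and 11.2% lower in non-PP. Without PP pig 1 or PP pig 2, the call of CDH17 was lost (log2 fold changes 3.08 and 2.45, adjusted p = 0.0518 and 0.0984, edgeR), so it rests on both PP libraries. It held without the library labelled whole ileum pig 1 (2.70, adjusted p = 0.00951). In sums of this kind, fewer cells of a type and less RNA per cell cannot be told apart.

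The other 6 genes had positive fold changes that did not pass the test, and in each of them non-PP pig 1 was the highest library. CDH1 stood at 16.7 and 6.06 CPM in PP, 52.8 and 22.1 CPM in non-PP and 9.06 and 8.22 CPM in whole ileum. EPCAM stood at 80.1 and 38 CPM in PP, 241 and 99.9 CPM in non-PP and 49.3 and 68.6 CPM in whole ileum. For both, the non-PP libraries lay above the others, with log2 fold changes of 1.70 (SE 0.57, adjusted p = 0.0854, edgeR) for CDH1 and 1.51 (SE 0.52, adjusted p = 0.0894) for EPCAM.

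Of the keratins, KRT8 stood at 243 and 125 CPM in PP, 934 and 334 CPM in non-PP and 156 and 187 CPM in whole ileum. KRT20, the keratin of mature intestinal cells, stood at 73.1 and 36.9 CPM in PP, 412 and 116 CPM in non-PP and 46.3 and 52.3 CPM in whole ileum. KRT18 stood at 19.6 and 5.28 CPM in PP, 45.5 and 5.90 CPM in non-PP and 6.54 and 5.57 CPM in whole ileum. PP and non-PP overlapped for KRT18 and for neither other keratin, an ordering that is not a test. The log2 fold changes were 1.77 for KRT8 (SE 0.55, adjusted p = 0.07, edgeR), 2.25 for KRT20 (SE 0.64, adjusted p = 0.0582) and 1.06 for KRT18 (SE 0.96, adjusted p = 0.446). VIL1 stood at 1.42 and 0.524 CPM in PP, 7.83 and 3.07 CPM in non-PP and 1.55 and 1.069 CPM in whole ileum, a log2 difference of 2.46 (SE 0.67, adjusted p = 0.0522).

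The median log2 fold change of the 7 genes was 1.77, against 0.05 over all genes tested. With the labelled pig as a block, CDH1 (adjusted p = 0.0293, edgeR), KRT20 (0.0415) and VIL1 (0.0188) were called too. Y-linked genes go against the pig label of a whole ileum library, so this block may not pair libraries of the same animal throughout. All genes called by this blocked fit are counted further below. With epithelial-like cells left out, CDH17 was higher in non-PP by 3.28 (adjusted p = 0.0110) and CDH1 by 2.49 (adjusted p = 0.0128), while EPCAM (1.62, adjusted p = 0.170), KRT8 (1.73, 0.177), KRT20 (2.30, 0.0838) and VIL1 (2.16, 0.0703) were not called. Both cadherins were called in the sum of these remaining cells, for which the share of all genes called is not given. T/ILC-like cells made up a larger part of QC cells in both non-PP libraries than in either PP library. The part of that difference in these calls was not tested.

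Partners of these proteins were counted in the same comparison. Of 5 catenins, only CTNNA1 was higher in non-PP (1.61, adjusted p = 0.0156, edgeR), with a median of 1.25. Of 14 brush border genes, 3 were higher, among them the unconventional myosin gene MYO15B (2.29) and EPS8 (2.00), an actin-capping protein of microvilli, with a median of 2.00. Of 11 tight junction and desmosome genes, 2 were higher, PKP3 (2.15) among them, and TJP1 was lower. Neither the 5 EPCAM partners (median 1.75), the 12 epithelial transcription factors (1.54), the 5 other cadherins (0.81) nor the 10 epithelial genes outside the 7 (1.82) held a called gene. Of 3 other keratins, KRT10 was lower. By contrast, 3 of 5 lymphocyte receptors for cadherins were higher, among them ITGB1 (0.82) and ITGAE (2.02), whose αE chain pairs with ITGB7 to bind E-cadherin, and 8 of 8 entries of cytotoxic effector genes were higher (median 2.92). All 5 B lineage genes were lower (median -5.27), beside the gap in B lineage-like cells given above. The part of cell composition in these fold changes was not tested beyond leaving the epithelial-like cells out.

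Failing barcodes held more of every gene than QC cells of the same library, save KRT18 in non-PP pig 1. In these barcodes CDH17 stood at 93.7 and 33.7 CPM in PP, 226 and 135 CPM in non-PP and 72.3 and 44.1 CPM in whole ileum, above the QC cells in 6 of 6 libraries. CDH1 stood at 77.5 and 14.9 CPM in PP, 106 and 39.5 CPM in non-PP and 33 and 18.3 CPM in whole ileum. EPCAM stood at 330.0 and 86.3 CPM in PP, 496 and 217 CPM in non-PP and 207 and 139 CPM in whole ileum. Both were higher than in QC cells in 6 of 6 libraries. KRT8 stood at 1156 and 179 CPM in PP, 2230.0 and 578 CPM in non-PP and 658 and 509 CPM in whole ileum. KRT20 stood at 408 and 96.9 CPM in PP, 861 and 271 CPM in non-PP and 244 and 163 CPM in whole ileum. Both keratins were higher than in QC cells in 6 of 6 libraries, but KRT18, at 35.4 and 7.23 CPM in PP, 26.6 and 13.2 CPM in non-PP and 8.16 and 9.35 CPM in whole ileum, was higher in 5 of 6. VIL1 stood at 13.1 and 5.30 CPM in PP, 29.97 and 22.6 CPM in non-PP and 11.9 and 8.91 CPM in whole ileum, higher than in QC cells in 6 of 6.

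**Figure D2:**
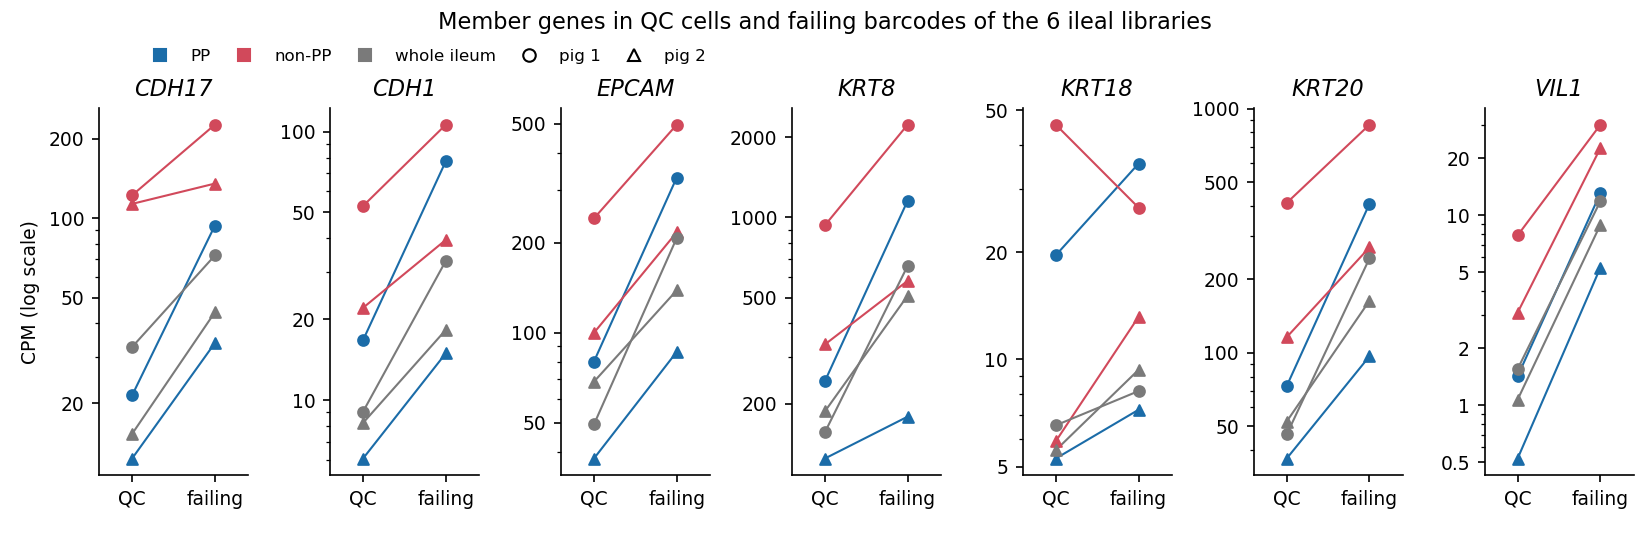
CPM on a log axis in QC cells (left) and failing barcodes (right) of the 6 ileal libraries, 1 panel per gene, with a line joining both values of a library. Lines run upward in every panel and library but for KRT18 in non-PP pig 1, which runs from 45.5 to 26.6 CPM.

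All 7 genes were called higher in failing barcodes with the library as a block, where 43.6% of 10690 genes were called, 22.3% higher and 21.3% lower. The increase was 3.00 on the log2 scale for VIL1 (SE 0.18, adjusted p = 4.34e-07, edgeR's quasi-likelihood test), 1.90 for KRT20 (SE 0.17, adjusted p = 1.00e-05), 1.63 for CDH1 (SE 0.16, adjusted p = 2.10e-05), 1.61 for EPCAM (SE 0.16, adjusted p = 1.55e-05), 1.59 for KRT8 (SE 0.21, adjusted p = 1.65e-04), 1.41 for CDH17 (SE 0.18, adjusted p = 1.06e-04) and 0.61 for KRT18 (SE 0.21, adjusted p = 0.0378). The median of the 7 was 1.61, against -0.01 over all genes. The call of KRT18 held in 6 of 13 alternatives and was lost without the library labelled whole ileum pig 1 (0.64, adjusted p = 0.0622), while the calls of the other 6 held without that library, for CDH17 at 1.44 (adjusted p = 6.69e-04). Without the block VIL1 alone was called (adjusted p = 0.0262), and for CDH17 the adjusted p was 0.241.

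Failing barcodes missed the thresholds in different ways, and the genes followed the mitochondrial share. In barcodes above the mitochondrial limit, VIL1 stood at 10.5 to 35.7 CPM over the 6 libraries, against 0 to 2.05 CPM in those that missed only the UMI or gene threshold. KRT8 stood at 359 to 2609 CPM and 25.9 to 393 CPM in the same order. CDH17 stood at 56.6 to 248 CPM and 12.6 to 141 CPM, and in non-PP pig 2 it was no higher in the first kind, with 133 against 141 CPM. Just inside the mitochondrial limit, QC cells of 10% to 12.5% held 153.6 CPM of CDH17 and 2326 CPM of KRT8 over the 6 libraries, and barcodes failing only by 12.5% to 15% held 221 and 3155 CPM. Just inside the UMI limit, QC cells under 1500 UMIs held 33.3 CPM of CDH17 and 56.9 CPM of KRT8, and failing barcodes of 1000 to 1249 UMIs with no more than 12.5% mitochondrial UMIs held 35.8 and 97.6 CPM.

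In the partner lists, 5 of 5 catenins were higher in failing barcodes, CTNND1 by 2.05 and CTNNA1 by 1.4. The rise took in 4 of 4 EPCAM partners, the protease inhibitor SPINT1 (3.05) and its target ST14 (2.33) among them, 9 of 11 tight junction and desmosome genes such as PKP3 (2.13) and CLDN3 (1.5), and 11 of 12 brush border genes such as MYO15B (3.91) and CDHR5 (3.52), with a median of 2.97. All 11 epithelial transcription factors tested were higher, CDX2 by 2.02 and GATA6 by 2.52, as were 9 of 10 epithelial genes outside the 7, APOA1 by 3.33 among them. All 5 B lineage genes were lower. Failing barcodes were 50.8% and 44.2% of barcodes in non-PP, against 25.4% and 22.9% in PP, and their median mitochondrial share was 40.8% and 28.1% in non-PP against 9.21% and 8.98% in PP.

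Between non-PP and PP, no gene of the 7 was called within failing barcodes by edgeR's quasi-likelihood test, where 5.46% of 9631 genes were called, 0.737% higher and 4.72% lower. CDH17 (1.77, SE 0.57, adjusted p = 0.135) and VIL1 (1.74, SE 0.46, adjusted p = 0.0916) had unadjusted p below 0.05, and DESeq2 called these 2. With the labelled pig as a block CDH17 (1.85, adjusted p = 0.00597), VIL1 (1.78, 0.0121), KRT20 (1.51, 0.0352) and EPCAM (1.17, 0.0476) were called. The same doubt about the pairing of whole ileum pig 1 holds for these calls. The gap between failing barcodes and QC cells was tested for a difference between non-PP and PP, and none of the 7 genes passed (CDH17 -0.96, SE 0.33, unadjusted p = 0.0181, adjusted p = 0.278, 4 of 10690 genes called).

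**Figure D3:**
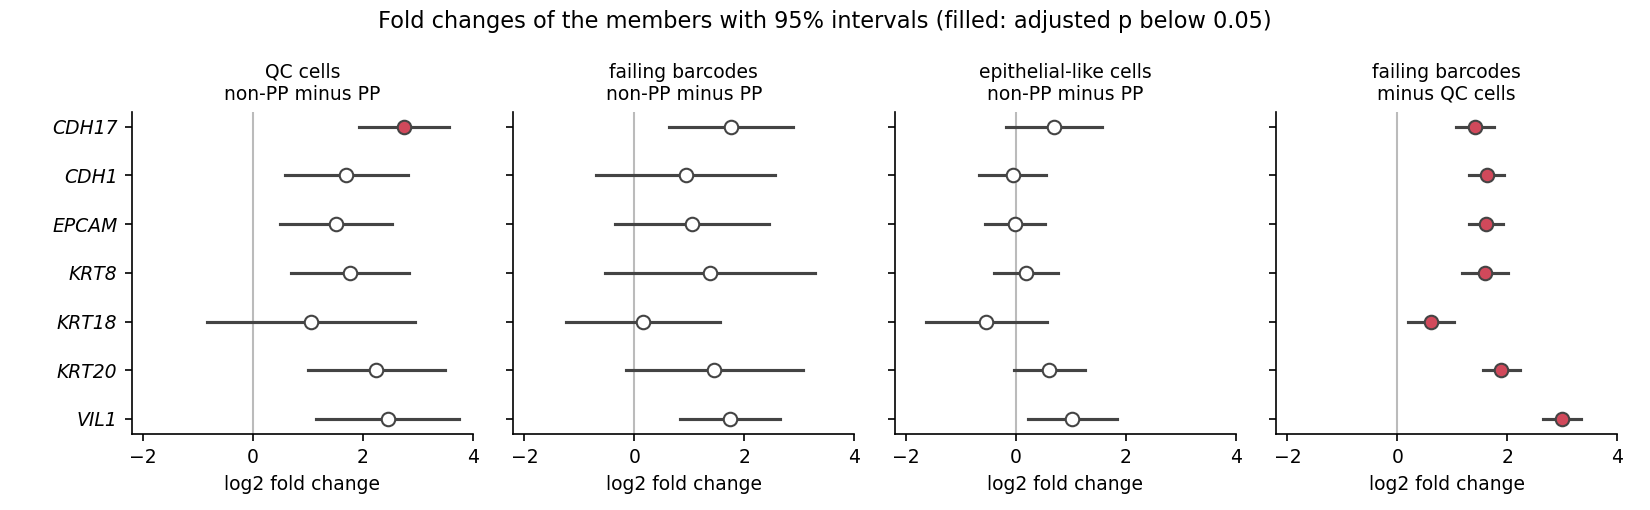
Log2 fold changes (points) with 95% intervals (lines) of the 7 genes in 4 comparisons from edgeR's fits, filled where the adjusted p was below 0.05. The intervals are normal ones drawn from the SE and are narrower than edgeR's test implies. CDH17 alone is filled for QC cells between non-PP and PP, none is filled within failing barcodes or within epithelial-like cells, and all 7 are filled for failing barcodes against QC cells.

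Within the epithelial-like cells themselves, no difference between non-PP and PP was detected for any of the 7 genes. CDH17 stood at 266 and 160.3 CPM in PP, 443 and 199 CPM in non-PP and 144 and 170.2 CPM in whole ileum, a mean of 230.5 ± 113 (SD, n = 6 libraries). PP and non-PP overlapped, and the log2 fold change was 0.69 with a normal 95% interval of -0.18 to 1.57. Such intervals, drawn from the SE, are narrower than edgeR's test with few libraries implies. CDH1 stood at 260.0 and 215 CPM in PP, 260.1 and 165 CPM in non-PP and 162 and 164 CPM in whole ileum, with a log2 fold change of -0.06. EPCAM (1549 ± 161 CPM, log2 fold change -0.02) and KRT8 (5031 ± 538 CPM, 0.19) varied least between libraries. KRT20 (1631 ± 437 CPM) ran from 1261 CPM in PP pig 1 to 2461 CPM in non-PP pig 1, with a log2 fold change of 0.61, and KRT18 (216 ± 96.8 CPM) ran from 82.3 CPM in non-PP pig 2 to 351 CPM in PP pig 1, with a log2 fold change of -0.53. VIL1 stood at 22.6 and 21.1 CPM in PP, 45.8 and 38.1 CPM in non-PP and 43.8 and 20.02 CPM in whole ileum. Its PP and non-PP libraries did not overlap, an ordering that is not a test. The log2 fold change of VIL1 was 1.03 (normal 95% interval 0.21 to 1.85), with an unadjusted p of 0.0394 and an adjusted p of 0.9997 (edgeR). Of 6949 genes, 0.0288% were called by edgeR (2 genes, both lower in non-PP), 338 had an unadjusted p below 0.05, and DESeq2 called none of the 7 genes. The classes of epithelial-like cells differed between these libraries, with enterocyte-like cells at 25.7% and 8.70% in PP and 47.1% and 28.2% in non-PP, and crypt-like cells at 26.5% and 71.7% in PP and 3.50% and 46.2% in non-PP. In the same cells 7 cytotoxic effector genes had a median log2 fold change of 3.04, none of them called, and their part in the values above was not tested.

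Most epithelial-like cells held several of the genes at once. The median was 5 of 7 genes with a UMI, 74.5% of the 671 cells held at least 5 and 3.87% held all 7. KRT8 had a UMI in 98% of cells on average over the 6 libraries, EPCAM in 95.8%, KRT20 in 90.8%, CDH1 in 75.4%, CDH17 in 70.8%, KRT18 in 44.7% and VIL1 in 22.9%. After thinning each cell to the UMI minimum of QC cells these shares were 92.1%, 79.7%, 70.4%, 22.1%, 26.3%, 19.7% and 3.98% in the same order. B lineage-like cells held a KRT8 UMI in 2.65% and a CDH17 UMI in 3.27% on average after the same thinning, the latter from 0.133% in PP pig 2 to 12.4% in non-PP pig 2. Without the library labelled whole ileum pig 1, the epithelial-like means were 247.7 CPM for CDH17, 212.8 CPM for CDH1, 1548.7 CPM for EPCAM, 5046 CPM for KRT8, 218 CPM for KRT18, 1669.9 CPM for KRT20 and 29.5 CPM for VIL1.

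The keratins and villin divided the classes of epithelial-like cells in different ways. The classes were named from other markers, and the levels are given with no test. Each library counts equally in the means, although some values rest on few cells. PP pig 2 held 4 enterocyte-like and 5 goblet-like cells, and non-PP pig 2 held 3 goblet-like cells. KRT20 stood at 3116 ± 352 CPM in 196 enterocyte-like cells (SD, n = 6 libraries), against 1070.0 ± 431 CPM in 213 crypt-like cells, 1059 ± 413 CPM in 145 goblet-like cells and 992 ± 462 CPM in 54 enteroendocrine-like cells. The lowest enterocyte-like library, at 2461 CPM, was above the highest of the other 3 classes. VIL1 stood at 75.9 ± 30.5 CPM in enterocyte-like cells, against 19.1 ± 11.8 CPM in crypt-like and 11.7 ± 18.6 CPM in goblet-like cells. KRT18 ran the other way. It stood at 982 ± 158 CPM in goblet-like and 741 ± 327 CPM in enteroendocrine-like cells, 76.9 ± 34.7 CPM in crypt-like cells and 17 ± 17 CPM in enterocyte-like cells, where 2 of 6 libraries had no KRT18 UMI. Of cells with a KRT18 UMI, 13.9% had a VIL1 UMI, against 29.9% of cells without. KRT8, the type II partner of both, stood at 5910.2 ± 669 CPM in enterocyte-like, 4530.3 ± 990.5 CPM in crypt-like, 4456 ± 878 CPM in goblet-like and 3439.8 ± 878 CPM in enteroendocrine-like cells. Its enterocyte-like range of 4630.3 to 6555 CPM overlapped the crypt-like and goblet-like ranges.

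Of the adhesion genes, EPCAM varied least between the classes. It stood at 1564 ± 273 CPM in enterocyte-like, 1483 ± 275 CPM in crypt-like, 1693 ± 436 CPM in goblet-like and 1145 ± 327 CPM in enteroendocrine-like cells, with overlapping ranges. CDH1 stood at 242 ± 50.7, 192 ± 36.2, 278 ± 91.6 and 96.8 ± 62.3 CPM in the same order. CDH17 stood at 120.3 ± 27.3 CPM in crypt-like cells, from 85.5 to 147 CPM, and at 349 ± 81.9 CPM in enterocyte-like cells, from 238 to 446 CPM. These ranges did not meet, although some library values rest on few cells. The enterocyte-like values rest on 4 cells in PP pig 2, 5 in whole ileum pig 2 and 9 in the library labelled whole ileum pig 1. The crypt-like value of non-PP pig 1 rests on 9. CDH17 was at 522 ± 202 CPM in enteroendocrine-like cells, where PP pig 2 rests on 2 cells, and ran from 45.4 to 575 CPM in goblet-like cells. Without the library labelled whole ileum pig 1, CDH17 stood at 370.7 CPM in enterocyte-like and 119.8 CPM in crypt-like cells, KRT20 at 3051 CPM in enterocyte-like cells and KRT18 at 970.1 CPM in goblet-like cells. Another 52 epithelial-like cells, led by CCL5, GZMB, CD52 and GZMA beside the bile acid carrier FABP6, were given no class, and 11 BEST4-like cells were too few to describe.

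**Figure D4:**
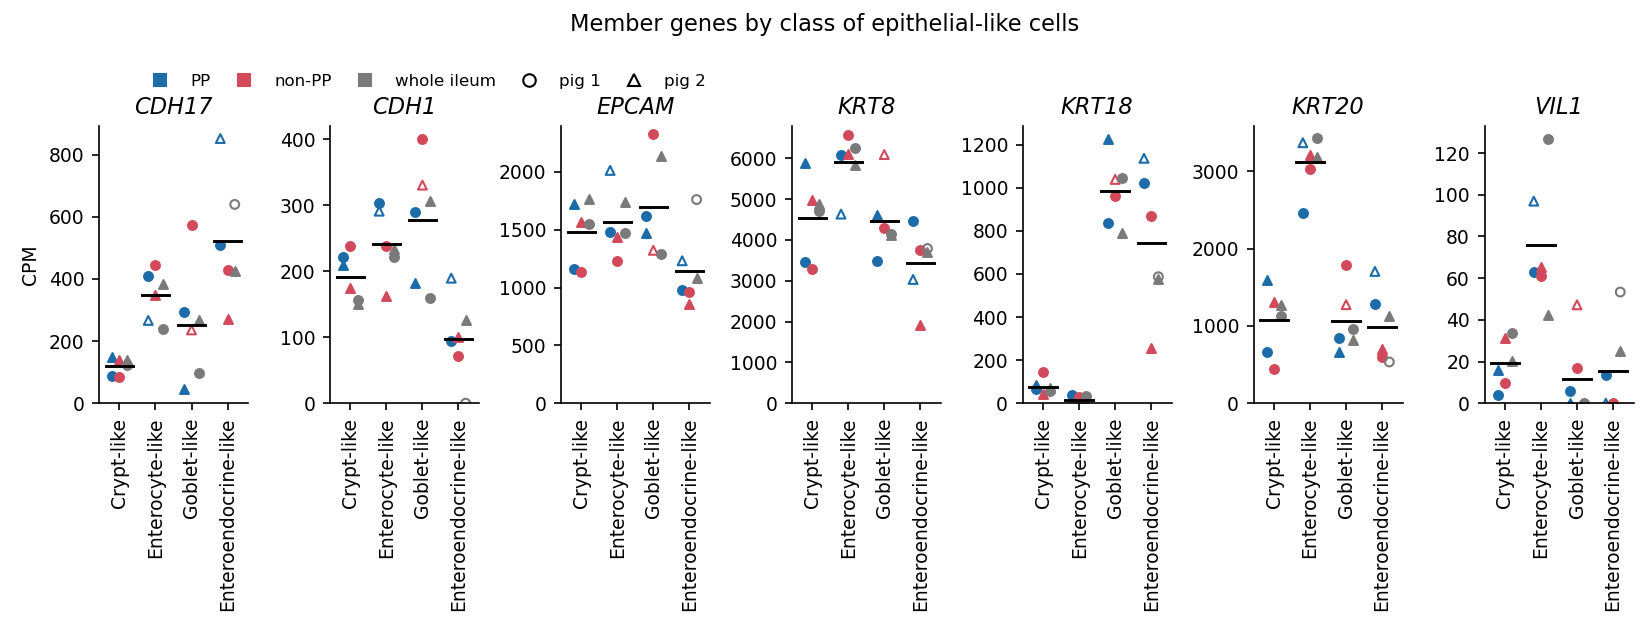
CPM of each gene in 4 classes of epithelial-like cells, with 1 point per ileal library (open where the class held under 5 cells) and a line at the mean over the 6 libraries. KRT20 and VIL1 are highest in enterocyte-like cells, KRT18 in goblet-like and enteroendocrine-like cells, and CDH17 is lower in crypt-like than in enterocyte-like cells.

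In the gated lymphocytes, CDH17 had UMIs in every ileal library and none in blood. It had a UMI in 15 of 495 cells of PP pig 1 (3.03%, 95% Clopper-Pearson interval 1.71 to 4.95) and in 57 of 622 of PP pig 2 (9.16%, 7.02 to 11.7). In non-PP it had a UMI in 26 of 153 cells of pig 1 (17%, 11.4 to 23.9) and in 397 of 857 of pig 2 (46.3%, 43.0 to 49.7). In whole ileum the counts were 181 of 754 cells (24%, 21.0 to 27.2) and 76 of 502 cells (15.1%, 12.1 to 18.6). The share ran over more than an order of magnitude, from PP pig 1 to non-PP pig 2. In blood it was 0 of 759 and 0 of 1104 cells, which allows shares of up to 0.485% and 0.334% at 95% confidence by the same method. These intervals cover counting error only. Thinned to the UMI minimum of QC cells, the ileal shares were 1.36%, 5.41%, 10.5%, 26.5%, 13.8% and 9.06% in the same order, and median UMIs of the gated cells ran from 2002 to 3335.

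CDH17 in 2 further classes was set beside the gated cells. The first, B lineage-like cells without KRT8, shares cells with the gate, since it also holds the 1296 gated B lineage-like cells of the 3383. In B lineage-like cells without KRT8 its share was 1.06% and 0.434% in PP, 16.3% (11.4 to 22.3) and 23.8% (18.3 to 30.1) in non-PP and 1.21% and 0.481% in whole ileum, at median depths of 2807 to 4526.5 UMIs. The gated share was above it in 6 of 6 libraries. In non-PP pig 1 the intervals overlapped, at 17% against 16.3% and at median depths of 2002 and 4526.5 UMIs. Such intervals take cells of 1 library as independent and are no test between the classes, whose levels are only described. The 2 non-PP values rest on 196 and 214 B lineage-like cells. The class holds cluster 20, where 87.6% of cells had a CD3E UMI. With that cluster left out, but cells with KRT8 kept, the B lineage-like shares were 13.1% and 20.1% in non-PP and 0.324% to 0.816% elsewhere. Both changes bear on these shares. In CD3E-positive cells with CD8B and no KRT8, the share was 1.76% and 0.949% in PP, 6.14% (4.15 to 8.71) and 2.93% (1.61 to 4.87) in non-PP and 1.65% and 0.333% in whole ileum. The gated share was above this one in 6 of 6 libraries, with overlapping intervals in PP pig 1. In CPM, the gated lymphocytes held 7.72 and 33.2 of CDH17 in PP, 95.3 and 257 in non-PP and 112 and 58.8 in whole ileum, against 2.76 and 1.28, 37.5 and 69.4, and 3.54 and 1.61 in B lineage-like cells without KRT8. The gated level was higher in 6 of 6 libraries on this scale. Its mean was 94.1 ± 88.8 CPM (SD, n = 6) and 90.5 ± 98.7 CPM without the library labelled whole ileum pig 1.

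UMIs of the other genes were fewer than those of CDH17 in the gated lymphocytes. Over the 3383 ileal cells there were 1173 CDH17 UMIs, 54 EPCAM UMIs, 58 KRT20 UMIs, 12 KRT18 UMIs and 2 VIL1 UMIs, while KRT8 is at 0 by the gate, which also leaves out cells that carry KRT8 beside other epithelial UMIs. PP pig 1 held 17 CDH17 and 16 EPCAM UMIs, and non-PP pig 1 held 34 and 9. CDH17 UMIs per EPCAM UMI numbered 21.7 in gated lymphocytes, from 1.06 to 53.7 by library, 7.53 in all T/ILC-like cells with no gate, from 2.29 to 21.1, 0.184 in epithelial-like cells, from 0.0929 to 0.307, and 0.378 in empty droplets of 1 to 100 UMIs, from 0.232 to 0.840. Summed over libraries, EPCAM stood at 4.35 CPM in gated cells with CDH17 and 4.51 CPM in those without, on 10 and 44 UMIs. By library it was higher with CDH17 in non-PP pig 2 (6.52 against 3.13 CPM) and lower in the others. The summed level of 13 epithelial markers outside the 7 ran from 23.7 to 544 CPM over libraries in gated cells with CDH17, with 11 of the 13 above 0, and from 15.2 to 554 CPM in those without, against 9620 to 56400 CPM in epithelial-like cells. Doublets were scored in 2.93% of the cells with CDH17 and 3.76% of those without.

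CDH1 was also present in gated lymphocytes, at a lower level. It stood at 1.82 and 3.65 CPM in PP, 19.6 and 20.8 CPM in non-PP, 9.73 and 5.94 CPM in whole ileum and 0.895 and 1.87 CPM in blood. Non-PP was above the other dissections for CDH1, whereas CDH17 in non-PP pig 1 was below the library labelled whole ileum pig 1. Between non-PP and PP, 4 of the 7 genes passed the filter on low counts. CDH17 was higher in non-PP by 3.11 (SE 0.62, adjusted p = 0.00807, edgeR) and CDH1 by 2.78 (SE 0.46, adjusted p = 0.00350), 2 of the 4, where 23.0% of 8553 genes were called and 10.9% were called higher. EPCAM (0.97, adjusted p = 0.450) and KRT20 (2.15, adjusted p = 0.197) were not called. Both calls held without the library labelled whole ileum pig 1 (CDH17 3.08, adjusted p = 0.0141, CDH1 2.77, adjusted p = 0.00723, edgeR) and were lost without non-PP pig 2 (CDH17 2.16, adjusted p = 0.146, CDH1 2.78, adjusted p = 0.0751).

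The gate held different cells in the dissections, and both calls were lost when it was limited to T/ILC-like clusters. B lineage-like cells made up 72.9% and 57.6% of gated cells in PP, 3.27% and 6.53% in non-PP and 35.0% and 50.2% in whole ileum. In gated T/ILC-like cells alone, CDH17 stood at 24.9 and 122 CPM in PP, 97.4 and 272 CPM in non-PP and 209 and 164 CPM in whole ileum. PP pig 2 was above non-PP pig 1, and the log2 fold change was 1.23 (adjusted p = 0.432, edgeR) for CDH17 and 1.31 (adjusted p = 0.295) for CDH1. Within the gate, all 8 cytotoxic entries, KLRK1 and FASLG among them, and 3 of 5 cadherin receptors, ITGAE (2.58) and ITGB7 (1.25) among them, were higher in non-PP, and 5 of 5 B lineage genes were lower.

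Clusters 8 and 17, T/ILC-like and led by GNLY, GZMA, GZMB, CCL5 and NKG7, held 1107 of the 3383 gated cells (32.7%) and 560 of the 752 with CDH17 (74.5%). Their share of gated cells was 3.64% and 12.4% in PP, 30.7% and 65.8% in non-PP and 37.1% and 24.1% in whole ileum. Inside these clusters the share with a CDH17 UMI was 44.4% and 46.8% in PP, 48.9% and 53.9% in non-PP and 48.6% and 43.8% in whole ileum. The level there was 177 and 331 CPM in PP, 289 and 317 CPM in non-PP and 296 and 290.2 CPM in whole ileum, a mean of 283 ± 54.7 CPM (SD, n = 6, and 281 ± 60.8 CPM without the library labelled whole ileum pig 1). The values of the dissections overlapped, and PP pig 1 rests on 18 cells and non-PP pig 1 on 47. In cluster 34, led by TIMP1, IL22 and KLRB1, 1 of 188 gated cells (0.532%) had a CDH17 UMI. Clusters 8 and 17 were not alone, since CDH17 had a UMI in 53.4% of 131 gated cells of cluster 32, led by CCL5, KLRK1 and FCER1G, in 34.1% of 91 of cluster 10 and in 71.4% of 49 of cluster 35. Over all cells of clusters 8, 17, 32, 10 and 35, gated or not, 46.2%, 45.2%, 47.9%, 11.7% and 43.6% had a CDH17 UMI. A CD3E UMI was in 46.3%, 36.1%, 63.2%, 91.8% and 80.8% of them in the same order. The gate thus held only a part of the cells with CDH17 in these clusters.

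CDH17 was also read in other lymphocytes without KRT8, sorted by receptor genes and not by cluster. In CD3E-positive cells with TRDC, the constant chain of the δ T cell receptor, and neither CD4 nor CD8B, it stood at 31.5 and 28.4 CPM in PP, 69.5 and 75.1 CPM in non-PP and 47.0 and 32.8 CPM in whole ileum (mean 47.4 ± 20.4), and at 0.872 and 0 CPM in blood. It stood at 8.73 ± 9.01 CPM in CD3E-positive cells with CD8B and at 3.88 ± 5.04 CPM in those with CD4, both with no CDH17 UMI in blood. The CD8B level was below that of the gated lymphocytes in 6 of 6 ileal libraries, least so in PP pig 1 with 4.53 against 7.72 CPM. T/ILC-like cells with neither CD3E nor CD2 held 123 ± 84.7 CPM, from 9.09 CPM in PP pig 1 to 224 CPM in non-PP pig 2. Without the library labelled whole ileum pig 1, the means were 47.5 CPM with TRDC, 8.97 CPM with CD8B, 3.13 CPM with CD4 and 102.9 CPM with neither CD3E nor CD2. The ranges of CD4-positive and CD8B-positive cells lay below that of TRDC-positive cells, while the latter overlapped the gated lymphocytes. Values just outside the gate were 39.9 CPM with 1 CD3E UMI in place of none, 54.9 CPM with 1 KRT8 UMI and 3.85 CPM with no CD2 UMI, most of the last B lineage-like, and 41.9 CPM just inside, with 1 CD2 UMI.

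**Figure D5:**
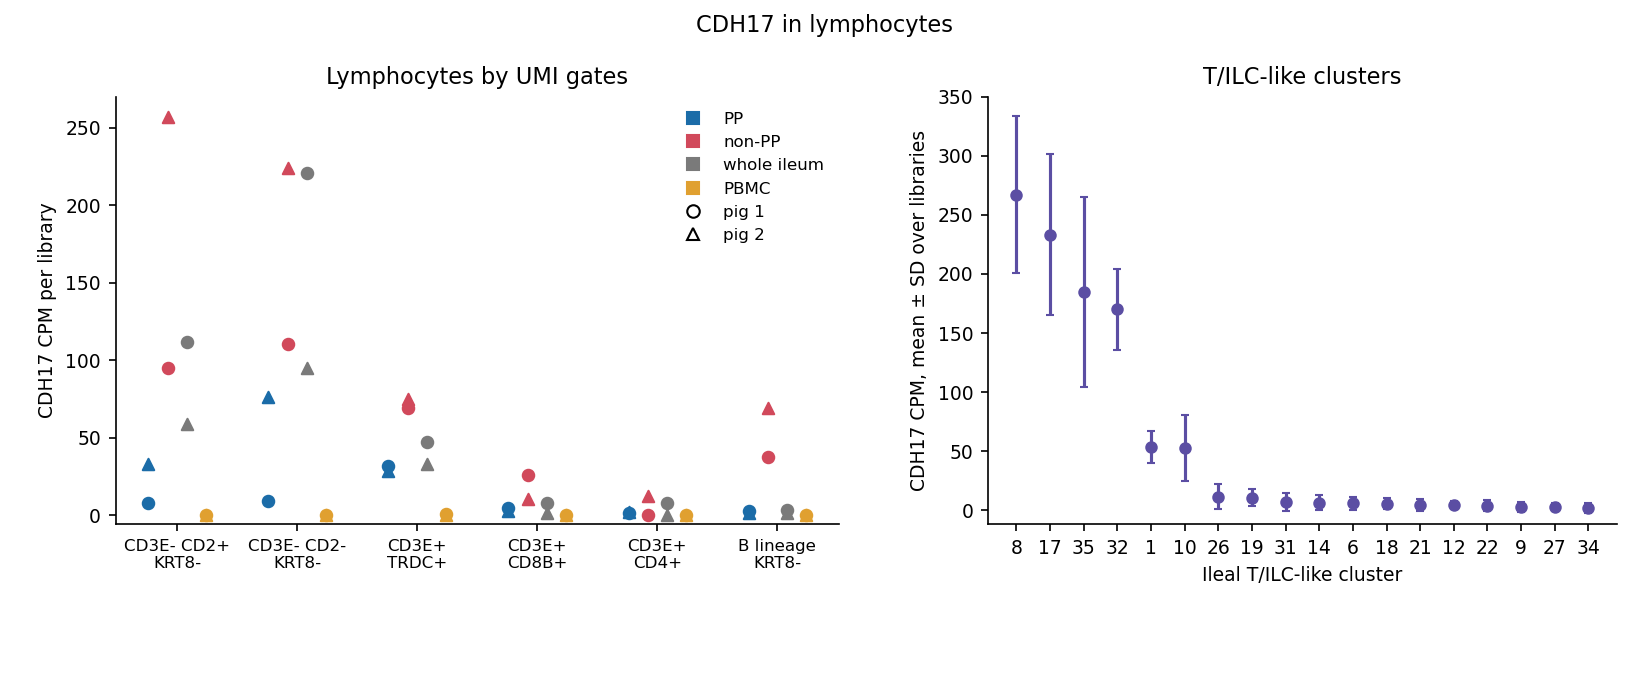
CDH17 CPM per library in lymphocytes sorted by UMI gates (left, 1 point per library, ileum and blood) and mean with SD over ileal libraries for each T/ILC-like cluster (right). Gated lymphocytes reach 257 CPM in non-PP pig 2, blood lies at or near 0, and clusters 8 and 17 stand highest at 267 ± 66.3 and 233 ± 68.1 CPM.

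Gated lymphocytes with CDH17 differed from those without in other genes as well. Of the 752 cells with CDH17, 473 held 1 UMI, 279 held 2 or more with 6 at most, and 94.1% were in T/ILC-like clusters, against 52.4% of the 2631 cells without. Of the 752, only 15 came from PP pig 1 and 26 from non-PP pig 1. The rest came from libraries with Y-linked genes at 185 to 226 CPM, and thus perhaps from 1 animal. With the library as a block, 13.2% of 6103 genes were called, 5.18% higher and 8.05% lower in cells with CDH17, and 1 of the 7 genes, CDH1, passed the low-count filter. Summed over libraries of unequal size, CDH1 was at 23.9 CPM in cells with CDH17 and at 5.43 CPM in cells without. By library the gap ran from 10.7 against 9.47 CPM in the library labelled whole ileum pig 1 to 77.7 against 6.84 CPM in non-PP pig 1. The 77.7 CPM rest on 5 UMIs. CDH1 was higher by 1.45 in the blocked fit (SE 0.42, adjusted p = 0.0281, edgeR). The call was lost without PP pig 2 (adjusted p = 0.0503), non-PP pig 1 (0.0724) or whole ileum pig 2 (0.106) and without the block (0.0617), and CDH1 did not pass the filter without non-PP pig 2 or the library labelled whole ileum pig 1. Without the library labelled whole ileum pig 1, 291 genes were called in place of 807.

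Of 8 entries of cytotoxic effectors, 7 were higher in cells with CDH17, with a median of 2.18 against -0.03 over all genes, among them NKG7 (2.07) of cytotoxic granules and GNLY (2.29), which encodes the pore-forming granulysin. FASLG (1.10, adjusted p = 0.0615) was not called. The 8 genes with the largest increases included both GZMA entries (2.50 and 2.30, under 1 symbol, with sequences not compared), GZMB (2.31) and the adhesion receptor ADGRG1 (2.33). ITGAE (1.54) and ITGB1 (1.03) were higher among 3 cadherin receptors, and the protease inhibitor SPINT2 (1.21) and the plakophilin PKP3 (1.49) were higher. Neither of 2 catenins nor of 2 brush border genes was called. Of 5 genes of group 3 innate lymphoid cells, 4 were lower, IL22 by -5.17 and the interleukin 7 receptor IL7R by -4.11, and 5 of 5 B lineage genes were lower, CD79B by -2.19 and MS4A1 by -2.66. CXCL8 was lower by -4.58. Of 6 T cell receptor complex genes, 3 were higher, CD3G and CD3D among them, and 2 were lower, CD5 and CD8B. In T/ILC-like gated cells alone, 7 of 7 cytotoxic entries were higher (median 1.26 against -0.000566 over all genes) and 4 of 4 group 3 genes were lower (median -4.05). ITGAE (0.69), ITGB1 (0.64), CD3G (0.93) and CD3D (0.80) were still higher there, while CTSW (-0.97) and CD69 (-0.66) were lower. SPINT2 was not called there (0.36, adjusted p = 0.387, edgeR), and PKP3 did not pass the low-count filter. Within clusters 8 and 17, none of 7 cytotoxic entries was called by edgeR, and 2 genes were called in all, among them CTSW, at -1.55.

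Over 11 cell classes and the ileal and blood libraries, 71 points of at least 20 cells, the genes most like CDH17 in log2(CPM + 1) were SCIN (r = 0.804), NDRG1 (0.788), C15orf48 (0.788), RHOD (0.756) and SELENOS (0.756) among 6897 genes. CDH1 was at 0.708 and EPCAM at 0.692. The genes most like EPCAM were LGALS4 (0.966), CLDN7 (0.954), KRT20 (0.953), LGALS2 (0.949) and KRT14 (0.942), and CDH17 was at 0.692. The points share libraries and depth and include the library labelled whole ileum pig 1, and LGALS4 and CLDN7 were among the markers that named the epithelial-like cells.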

How the data were processed

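Cells were captured in droplets with 10x Chromium 3′ v2 chemistry. The authors aligned reads to Sscrofa11.1 with a modified Ensembl annotation in CellRanger (Cell Ranger 4.0.6 in the submitters' processing notes) and deposited unfiltered UMI counts, taken before their own ambient RNA, quality and doublet steps. Each library appears as 4 runs among 32 GEO samples and was counted once. The genes, gate and gene lists were chosen with earlier results of these data known. After a correction for library, QC cells were clustered with Leiden at resolution 3 in ileum and 1.5 in blood. Epithelial-like cells were clustered again at resolution 1 without that correction. Clusters were named from markers, with the 7 genes left out of the clustering and of the markers. Shares were thinned by exact draws. Counts were summed per library and tested with edgeR's quasi-likelihood test after its low-count filter and TMM scaling, called at an adjusted p below 0.05, with all 3 dissections in 1 fit. Failing barcodes against QC cells, and cells with against without CDH17, had the library as a block. Fits were also run on counts simulated with 1 dispersion for all genes and no pig effect. Such counts are simpler than these data, so they do not measure how well the fits work here. Genes named from a list are the 2 of lowest adjusted p in each direction, and for cells with CDH17 also up to 8 of the largest changes with average logCPM of at least 5 and the same sign in every library. By label, libraries of 1 pig pair the dissections, as from the same animal, but Y-linked genes go against this for whole ileum pig 1. Deviations of PP and non-PP libraries from their group means correlated by pig at 0.571 in QC cells, 0.680 in failing barcodes, 0.465 in epithelial-like cells and 0.305 in gated lymphocytes, but at -0.118 to 0.178 with whole ileum. Depth ran from 21134542 to 40111934 UMIs per library. Tests ran in R 4.3.3 with edgeR 4.0.16 and DESeq2 1.42.0, and clustering in Python 3.11.15 with leidenalg 0.10.2.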

Additional observations from a re-analysis of the deposited data

Results flagged for a closer look

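The log2 ratio of failing barcodes to QC cells for VIL1 was 2.408 in non-PP pig 1, below the other 5 ileal libraries by more than Dixon's 95% critical value allows. Of the 7 genes tested this way it was the only 1 to stand apart, and chance flags about 1 group in 20. In the empty droplets of the PBMC libraries, which no comparison used, KRT8 stood at 18.1 CPM against 0.0169 CPM in blood QC cells, EPCAM at 5.60 against 0.101 CPM, KRT20 at 4.96 against 0.0338 CPM, CDH17 at 2.56 against 0.0338 CPM (16 UMIs against 2) and CDH1 at 1.28 against 0.626 CPM. The source of these UMIs was not tested.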

How the results depend on the processing

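Alternatives to the tests were other tools, scalings and filters, the pig or library block, and libraries, doublets or cells left out, and 7 of them were chosen after seeing the data. For the 7 genes, 362 values stayed the same, as fold changes that kept direction and call or as mean levels that moved by less than the SD. Of the fold changes, 28 gained a call, 22 lost one and 13 changed sign. Leaving out 1 library gave 158 to 1940 called genes for QC cells between non-PP and PP (2334 with all), 58 to 195 for failing barcodes (526), 0 to 177 for epithelial-like cells (2), 646 to 2249 for gated lymphocytes (1966) and 291 to 1110 for cells with against without CDH17 (807). The low end was without PP pig 2 for QC cells, without whole ileum pig 2 for failing barcodes, without non-PP pig 2 for gated lymphocytes and without the library labelled whole ileum pig 1 for cells with CDH17. For failing barcodes between non-PP and PP, 1149 genes were called without the filter, 1609 with the replicate block and 92 at 1000 or more UMIs. For failing barcodes against QC cells, 1098 were called without the block in place of 4662. For epithelial-like cells, DESeq2 called 21, no filter 178 and the replicate block 29. For gated lymphocytes, DESeq2 called 1205 and T/ILC-like clusters alone 48. For cells with against without CDH17, no filter gave 1274, no block 114, T/ILC-like clusters alone 440, cells of 2000 to 4000 UMIs 468 and clusters 8 and 17 gave 2, with fewer cells in the last 3. The replicate block called 2803 genes for QC cells and 1847 for gated lymphocytes, and beyond the calls given with the results it changed none. Thinning moved the share of epithelial-like cells with CDH17 from 70.8% to 26.3%. Signs changed without non-PP pig 1 for KRT18 in QC cells (-1.17, up to 2.14 with another library left out), for CDH1 (-0.10, up to 2.60), KRT8 (-0.061, up to 3.29) and KRT18 (-0.59, up to 1.77) in failing barcodes, for CDH17 in epithelial-like cells (-0.096, up to 1.19) and for EPCAM in gated lymphocytes (-0.061, up to 2.40), and without PP pig 2 for KRT18 in failing barcodes (-0.54). In epithelial-like cells they also changed for CDH1 (0.12) without PP pig 1, EPCAM (0.12) without PP pig 2, CDH1 (0.28), EPCAM (0.05) and KRT18 (0.11) without non-PP pig 2 and EPCAM (0.00438) without the sub-cluster with lymphocyte genes, where leaving out another library gave as low as -0.51 for CDH1, -0.14 for EPCAM and -1.81 for KRT18. None of these was called. Other than fewer samples or cells, the cause was not tested. Depth limits VIL1 most, with 262 UMIs in ileal QC cells.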

Other observations

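CDH17 UMIs were also counted in a myeloid-like cluster of the ileum, cluster 33, led by CST3, TYROBP and AIF1 and by genes of antigen presentation. Its 308 cells held CDH17 at 125 and 109.6 CPM in PP, 44.3 and 19.2 CPM in non-PP and 141 and 99.1 CPM in whole ileum, a mean of 89.6 ± 47.6 CPM (SD, n = 6, and 79.4 ± 45.2 CPM without the library labelled whole ileum pig 1). The B lineage-like cells without KRT8 held 2.76 and 1.28 CPM in PP, 37.5 and 69.4 CPM in non-PP and 3.54 and 1.61 CPM in whole ileum. Cluster 33 was thus above them in PP and whole ileum but not in non-PP pig 2, and its non-PP values rest on 5 and 4 UMIs. A CD3E UMI was in 20.1% and a CD2 UMI in 19.2% of these cells, and the part of such UMIs was not tested. CDH1 had 1 UMI in these cells, and 22.7% of them had a CDH17 UMI. Over all myeloid-like cells there were 13.7 CDH17 UMIs per EPCAM UMI, and in blood the 1864 myeloid-like cells held no CDH17 UMI.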
